A study of Homo sapiens with 10 samples.

Results

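Untreated K562 cells were examined for how much of each gene's RNA carried the label of newly made RNA. K562 is an established line from a chronic myeloid leukemia, with erythroid and megakaryocytic features. The 2 libraries described here, DMSO library 1 and DMSO library 2, came from cells given the solvent DMSO for 2 h, with 100 µM 4-thiouridine present in the last 1 h, and they are 2 of 10 in the series. The labels number the DMSO libraries but do not say whether they came from separate cultures, so the spread between them may be technical. The 2 ACTD libraries, from cells given actinomycin D for 2 h with the same labelling, were used only as the level of false label. Genes entered when their total count averaged at least 50 over the DMSO libraries, which kept 10409 of the 59204 genes listed. Of the 48795 genes left out, 36943 had no count in either DMSO library.

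4-Thiouridine is taken up by cells and built into RNA in place of uridine. In SLAM-seq the thiol is alkylated with iodoacetamide, after which reverse transcription reads the base as C, so that new RNA is recognised by T-to-C changes. The libraries were made with a kit that sequences the 3′ end of polyadenylated RNA. The labelled share used throughout is the number of labelled reads of a gene over all its reads in the same library. A short-lived RNA is replaced quickly and gathers label within the pulse, while a long-lived RNA is still mostly the unlabelled stock made before it. The share is a scale of turnover and not a half-life, because a new read counts as labelled only where a converted T falls within it.

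DMSO library 1 had 15507311 reads on genes, of which 448401 (2.89%) were labelled, and DMSO library 2 had 16339449, of which 434411 (2.66%) were labelled. In the ACTD libraries 1410 and 1614 reads were labelled, 0.00910% and 0.00901% of all reads. The genes kept held 99.4% of total reads in each DMSO library. Of 20 genes that mark K562, 18 passed the count minimum, and their summed total count was 125187 and 134533. Of 16 markers of other lineages 6 passed, with sums of 2076 and 2304, and 5 had no count at all; EPCAM was the highest, at 1003 and 1116 counts.

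The label was spread very unevenly over genes. The median gene had a labelled share of 3.75% in library 1 and 3.51% in library 2. From the 10th to the 90th percentile the share ran from 0.803 to 13.2%, a 16.4-fold span, and 470 genes had a mean share of at least 20% while 1370 lay under 1%. In 223 genes no labelled read was seen in either library. Among 1851 genes with 500 to 1000 total counts, the 5th percentile was 0.610% and the 95th 12.5%. Total reads were more concentrated than labelled ones, since 395 genes supplied 50% of total reads in each library but 897 and 923 genes supplied 50% of labelled reads.

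The libraries were compared over genes with enough labelled reads. Among 4248 genes with at least 20 labelled reads in both, 84.8% had shares within 1.5-fold of each other, and the median absolute log2 ratio was 0.26. Library 1 ran slightly higher, with a median ratio of 1.08 over library 2. Each gene was therefore set against the median gene of its own library. A gene was called high or low when edgeR's quasi-likelihood test on its labelled and unlabelled counts gave a Benjamini-Hochberg adjusted p under 0.05 and its share lay at least 2-fold above or below the median gene in both libraries. By this rule 1943 genes (18.7%) were high and 1851 (17.8%) were low, and these percentages are the background for the counts of gene groups that follow. The share over all reads of a library lies 0.37 and 0.40 below the median gene on the log2 scale, and against it 2723 genes were high and 1276 low. Genes were also set against those of the same decile of T content in their last 200 transcript bases (the T content scale). A call lost on it is stated for genes named below, not for every gene of a group. With 1 residual degree of freedom a gene, the test borrows its spread from all genes. The weight of that common spread was unlimited (infinite prior degrees of freedom at the median gene). The SE and p of a gene therefore do not measure the difference between its own libraries. The share of high calls depended on abundance, with 14.2% high and 23.0% low among the 7238 genes of at least 200 mean counts, against 28.9% high and 5.83% low among the 3171 below that. In the most abundant quintile of nuclear protein-coding genes, from 1443.5 mean counts up, 3.89% were high and 41.4% low.

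**Figure D1:**
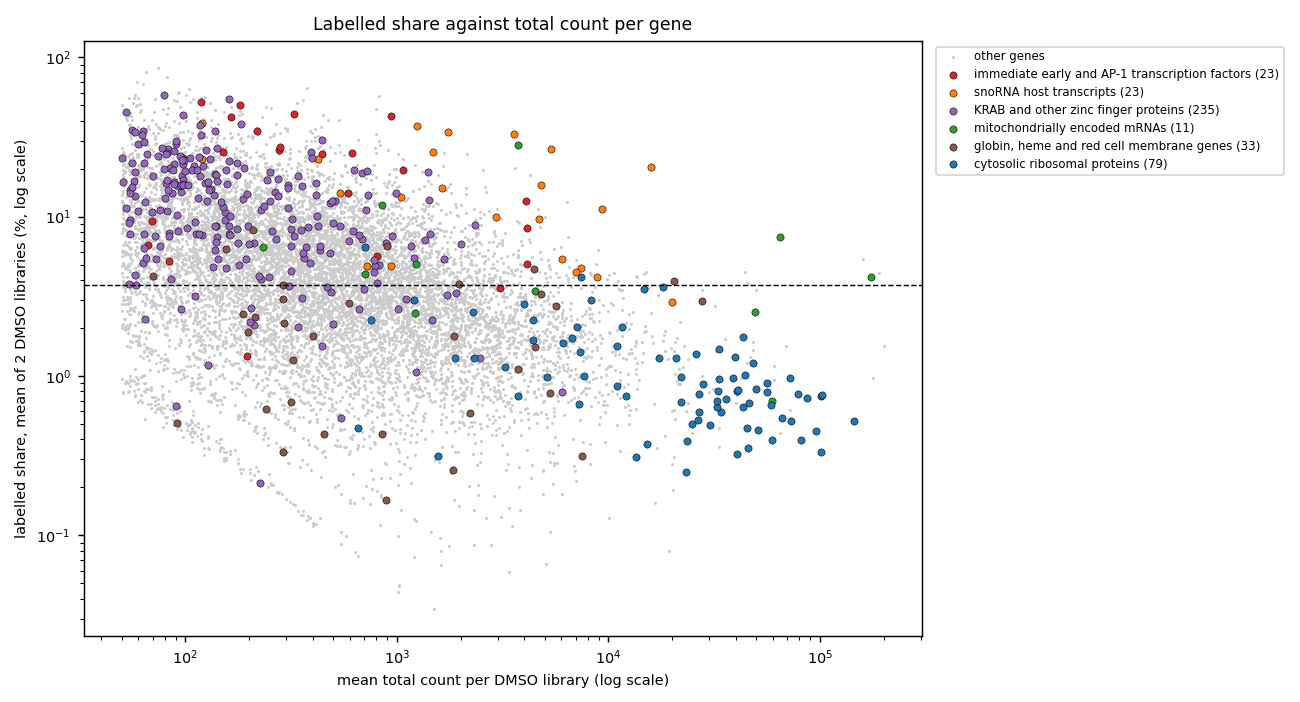
Each point is a gene, with its mean total count per DMSO library on a log axis against its labelled share (mean of both DMSO libraries, in percent, log axis); the 223 genes without a labelled read are not drawn, and the dashed line is the median of all genes. Immediate early genes and snoRNA host transcripts lie mostly above the line at low and at high counts, cytosolic ribosomal proteins lie low on the right, and mitochondrially encoded mRNAs fall on both sides.

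Many of the genes with the highest shares encode regulators whose mRNAs are known to be short-lived. Some of these carry AU-rich elements, stretches of the 3′ untranslated region (UTR) built around the pentamer ATTTA that recruit decay proteins such as those of the ZFP36 family. The longer heptamer TATTTAT is the core of their binding site. To show what such sites look like, the copy nearest to the transcript end is printed for 8 genes, ordered by mean labelled share. They are examples from the regulators called high in 3 lists (immediate early factors, decay-promoting factors, and feedback inhibitors) that hold the heptamer. Not every such gene was eligible, so a gene that is not printed may have a share as high. Letters are from GENCODE 29 transcripts on GRCh38, 5′ to 3′ on the gene's strand, 29 bases each, with the heptamer in capitals and T standing for U.
SOCS3: gcacatatttaTATTTATattcagaaaag
CISH: cactatttattTATTTATtctccttgggg
IER3: aggtctcttggTATTTATtgagctttgtg
KLF6: tatgtttctctTATTTATgccttgaggac
TNFAIP3: aaaaaagtaatTATTTATacttattataa
NFKBIA: tttatgatgtaTATTTATtaaacagattt
SPRY2: ataaaaaagaaTATTTATtttaagaggca
ZFP36L2: attgtatgtaaTATTTATttcattaattt

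The windows lie at chr17:78356826-78356854 (SOCS3, minus strand), chr3:50607090-50607118 (CISH, minus), chr6:30743538-30743566 (IER3, minus), chr10:3778341-3778369 (KLF6, minus), chr6:137883149-137883177 (TNFAIP3, plus), chr14:35401520-35401548 (NFKBIA, minus), chr13:80336086-80336114 (SPRY2, minus) and chr2:43223212-43223240 (ZFP36L2, minus). All 8 are in annotated 3′ UTRs. The heptamer ended 20 bases before the annotated end of the NFKBIA transcript and 59 bases before that of SOCS3, but 2356 bases before that of KLF6. IER3 held 4 copies of the heptamer in a UTR of 737 bases, CISH and ZFP36L2 held 3 each, and KLF6 held 1. Of the 9063 nuclear protein-coding genes with an annotated 3′ UTR of at least 50 bases, 32.0% held the heptamer on the transcript strand. A match shows the letters only and not that a protein binds there.

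Genes with a high labelled share. Of the 15 highest shares among genes called high with at least 200 mean total counts, MYLIP stood first. MYLIP encodes a ubiquitin ligase that marks other proteins for degradation. It had 303 labelled of 425 reads in library 1, a share of 71.3% (95% Wilson interval 66.8 to 75.4%), and 184 of 327 in library 2, a share of 56.3% (50.9 to 61.5%). Its log2 ratio of labelled to unlabelled reads lay 5.58 ± 0.18 (SE) above the median gene (edgeR adjusted p 5.72e-198). Neither this SE nor the p measures the gap between the libraries, whose intervals for MYLIP do not overlap. MIR17HG, the host transcript of the miR-17-92 microRNA cluster, had shares of 58.0% and 56.9%, a mean of 57.5% ± 0.763 (SD, n = 2). CISH, a cytokine-induced inhibitor of JAK-STAT signalling, had 44.0% and 52.1%, and TXNIP, an arrestin family protein that binds thioredoxin and restrains glucose uptake, had 53.5% and 41.7%. EGR1, an immediate early zinc finger factor, had 48.8% and 39.9%. The lowest single value of these 5 genes was the 39.9% of EGR1 in library 2.

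The other protein-coding genes of the 15 were RABGGTB, EPC1, SLC25A25, IER3 and C1orf109. RABGGTB, a subunit of the enzyme that attaches lipid anchors to Rab proteins, had 43.0% and 43.3%. EPC1, a component of the NuA4 acetyltransferase complex, had 40.9% and 43.7%, and SLC25A25, a calcium-regulated mitochondrial carrier, had 40.5% and 40.8%. The remaining members of the 15 were MIR17HG, the snoRNA host SNHG19, the lincRNA ENSG00000264066 and the pseudogenes CCT6P3, RPS27AP12 and RPL31P49. For RPL31P49, 364 reads were labelled in the ACTD libraries too, 88.8% of all its reads there, so its share in DMSO cannot be read as new RNA. Among the 1943 genes called high, 1840 had no labelled read in ACTD, 16 had 3 or more, and in 10 the ACTD share reached 10% of the DMSO share.

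**Figure D2:**
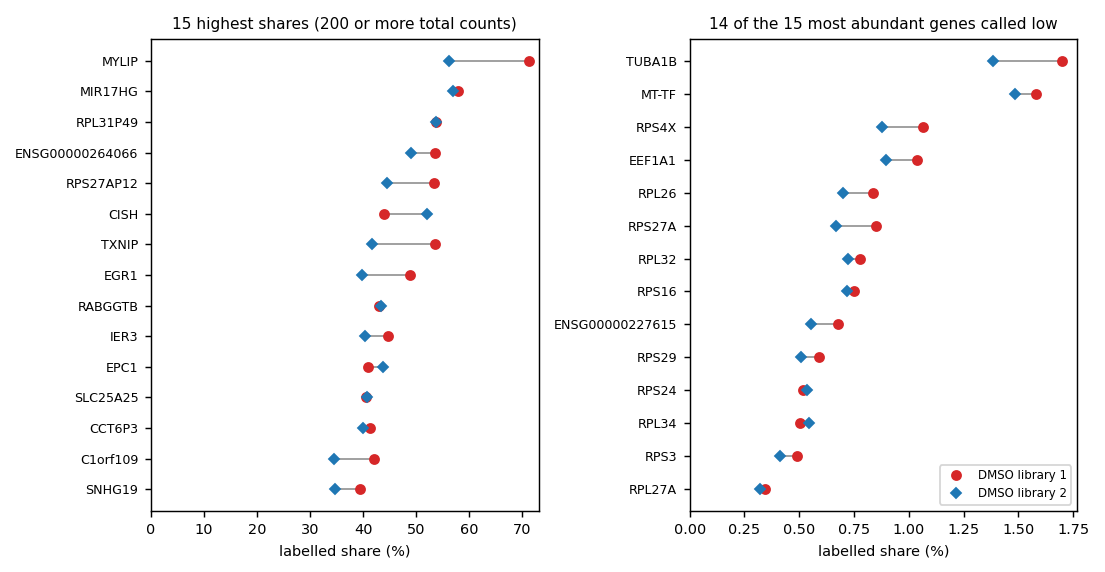
Labelled share in percent in DMSO library 1 (circles) and DMSO library 2 (diamonds), on linear axes that start at 0, for the 15 highest shares among genes called high with at least 200 mean total counts (left) and for 14 of the 15 most abundant genes called low (right). The left panel spans 34.5 to 71.3% and the right panel 0.320 to 1.70%.

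Transcription factors of the immediate early type, which are switched on within minutes of a growth signal, had a list median of 20.1% in library 1 and 19.1% in library 2, against 3.75% and 3.51% over all genes. Of 23 members measured 16 were high (69.6%) and none was low. HES1, a repressor in the Notch pathway, had 81 labelled of 179 reads and 101 of 183, shares of 45.3% and 55.2%. KLF10, a TGF-beta responsive repressor, averaged 52.1% ± 1.24 (SD, n = 2). MYC, a factor that drives growth and proliferation, had 109 labelled of 481 reads and 108 of 402, shares of 22.7% and 26.9%, which was 6.68-fold above the median gene (edgeR adjusted p 1.74e-41). JUN had 34.1% and 20.8%, and IER2, the most abundant of those named, 13.4% and 11.8% from 4428 and 3771 reads. HES4 was the lowest member, with 4 and 1 labelled reads of 181 and 212, and was called neither high nor low. FOS had 20 and 40 total reads and stayed under the count minimum.

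Factors that promote mRNA decay or restrain growth were all high: 11 of 11 members, with medians of 27.4% and 21.3%. ZFP36L2, which binds AU-rich elements and brings in the deadenylase, had 31.9% and 34.3%, and ZFP36L1, its close relative, 30.3% and 29.4%. ZC3H12A, an endonuclease that cuts inflammatory mRNAs, had 32.6% and 31.2%. BTG3 and TOB1, antiproliferative proteins that link to the CCR4-NOT deadenylase, had 32.0% and 27.7%, and 27.4% and 51.8%. The TOB1 values rest on 62 and 114 reads. The general decay machinery, which includes deadenylases, decapping enzymes and the exosome, stood lower, with medians of 4.23% and 4.49%, and its 12 high genes of 61 (19.7%) lay near the background of 18.7%; 6 were low. Its high members included CNOT4 (26.5% and 29.4%) and SMG1 (22.9% and 18.6%), and its low members LSM4 (1.02% and 0.744%) and ELAVL1 (1.57% and 1.58%). ELAVL1 stabilises mRNAs with AU-rich elements, and its own 3′ UTR held 5 copies of the heptamer.

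Feedback inhibitors of signalling had medians of 12.5% and 13.3%, with 17 of 25 high and none low. SOCS3, which blocks cytokine receptors, had 64.6% and 55.7%. SPRY4, an inhibitor of the MAP kinase pathway, had 52.8% and 53.8%. NFKBIA, which holds NF-kB in the cytoplasm, had 30.1% and 40.4%, and TNFAIP3, a ubiquitin-editing enzyme of the same pathway, 52.9% and 24.8% from 85 and 101 reads. Both genes also belong to the list of NF-kB genes and chemokines, where 5 of 9 members were high. There the chemokine CXCL3 led with 51.0% and 64.3%. SKI was the lowest of the feedback inhibitors at 3.11% and 2.56%, close to the median gene.

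Growth-arrest genes and p53 targets had medians of 11.3% and 8.64%, with 9 of 17 high and none low. Besides TXNIP these included its relative ARRDC3 (56.2% and 41.7%), the kinase PLK3 (46.8% and 29.2%) and DDIT4, an inhibitor of mTOR signalling (27.0% and 25.7%). Homeobox and other developmental factors had medians of 12.2% and 12.9%, with 9 of 15 high. Of these 15, the 9 with at least 200 counts had a median of 5.16%, against 3.11% over all genes of that abundance. HOXB2 had 26.0% and 21.4%, while HOXB7 had 2.18% and 1.61% and was not called. The kinases CLK1 and CLK4, which phosphorylate SR splicing factors, had 49.6% and 48.5%, and 45.5% and 42.4%, but CLK4 had only 44 and 66 reads.

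Zinc finger proteins, most of them repressors of the KRAB family, gave the most high calls of the 45 lists. Of 497 listed genes 236 were abundant enough, with medians of 11.3% and 10.8%; 124 (52.5%) were high and 6 (2.54%) low. ZNF57 had 59.4% and 57.3%, and ZNF627 had 55.8% and 53.6%. The list also had a low abundance, with a median of 144.5 total counts, in the range where more genes were called high; among its 94 members with at least 200 counts the median share was 7.09%, against 3.11% over all genes of that abundance. The low members were not typical in abundance: ZNF428 had 5976 and 6098 reads with shares of 0.753% and 0.836%, and ZNF90 had 1.84% and 0.762%. ZNF414 had no labelled read among 160, which allows a share of up to 1.88%, and its low call was lost on the T content scale and with DESeq2, which gave it no adjusted p.

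Noncoding RNAs. Long noncoding types together had medians of 6.51% and 6.45%, with 155 high and 27 low of 468, 33.1% and 5.77%. Their median total count was 123.75, and among all genes kept with under 200 counts 28.9% were high and 5.83% low. The 170 with at least 200 counts had a median share of 5.21%, against 3.11% over all genes of that abundance. Host transcripts of small nucleolar RNAs (snoRNAs), whose introns carry the guides for rRNA modification while the spliced exons are known to be degraded by nonsense-mediated decay, were higher, with 15.4% and 12.6%. Of 23 such hosts 16 were high and none low. SNHG3 had 3357 labelled of 14962 reads and 3098 of 16878, shares of 22.4% and 18.4%, and stood at rank 5 of all genes by labelled reads. SNHG1 had 27.4% and 25.6%, SNHG12 had 35.9% and 31.9%, and TAF1D, a coding host that encodes a subunit of the RNA polymerase I selectivity factor, had 34.7% and 31.6%. GAS5 had 11.5% and 10.7%. SNHG29 was the lowest host, at 3.06% and 2.74%, and was not called. In all, the hosts held 0.65% and 0.68% of total reads but 2.87% and 2.77% of labelled reads.

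Labelled shares differed among the kinds of genes that have a snoRNA inside. The 27 noncoding genes with a snoRNA in their annotated span had medians of 14.0% and 11.6%, with 18 high. The 28 ribosomal protein genes that contain one had 0.805% and 0.749%, with none high and 22 low. Other coding genes with a snoRNA had 4.42% and 4.04%, with 42 high and 24 low of 160 (26.25% and 15.0%). Coding genes without one had 3.75% and 3.51%, with 17.9% high and 17.1% low. Median total counts of these 160 genes and of those without a snoRNA were 874.25 and 442.5. Among well-known long noncoding RNAs, KCNQ1OT1, which silences an imprinted cluster, had 33.2% and 35.9%, and NEAT1, the scaffold of paraspeckles, had 20.8% and 20.1%. MALAT1 (3.58% and 3.60%) and NORAD (4.45% and 3.91%) lay near the median gene. PVT1, from the MYC locus, was low at 0.498% and 1.02%, and H19 had 2 labelled reads of 282 in library 1 and 0 of 285 in library 2.

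Genes with a low labelled share. Cytosolic ribosomal proteins were the lowest list, with medians of 0.85% and 0.79%; 67 of 79 (84.8%) were low and none was high. They held 16.3% and 16.4% of total reads but only 4.67% and 4.71% of labelled reads. RPL27A had 358 labelled of 104195 reads in library 1 and 312 of 97513 in library 2, shares of 0.344% and 0.320%, with a log2 ratio 3.50 ± 0.08 (SE) below the median gene. RPS3 had 0.491% and 0.411%, and RPS24, the most abundant of those named, 0.516% and 0.534% from 140893 and 148756 reads. RPL36 was the lowest, at 0.287% and 0.210%. RPL6 was the highest, at 6.97% and 5.87%, but had only 703 and 716 reads. Ribosomal protein genes have many processed pseudogenes, and how reads that match several copies were assigned is not given in the sources used here. Processed pseudogenes as a type had medians of 1.02% and 0.917%, with 207 low and 42 high of 436.

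The elongation factor EEF1A1, which delivers aminoacyl-tRNA to the ribosome, had 1.04% and 0.894% from 172422 and 183533 reads. Its share was low, yet it stood at rank 10 of all genes by labelled reads. Translation factors as a list had medians of 2.10% and 2.14%, with 15 low and 2 high of 41. The exceptions were EIF4A2, an RNA helicase of initiation (24.0% and 25.9%), and EIF5 (9.56% and 9.44%). EIF4A2 also holds snoRNAs in its introns. Aminoacyl-tRNA synthetases had 6 low and none high of 20, 30.0% and 0%. Translation factors and synthetases are abundant, with median total counts of 4425.5 and 2013. Their percentages of low genes, 36.6% and 30.0%, lay below the 41.4% of the most abundant quintile. Mitochondrial ribosomal proteins had medians of 2.39% and 2.11%, but their 16 low genes of 77 (20.8%) lay near the 23.0% of all genes with at least 200 counts, and 3 were high.

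Energy metabolism was low as well. Nuclear-encoded subunits of the respiratory chain, at a median total count of 3555, had medians of 1.43% and 1.45%, with 50 low (60.2%) and 1 high of 83. ATP5MG, a subunit of ATP synthase, had 0.694% and 0.458%, and UQCRH, of complex III, had 1.12% and 0.943%. NDUFA3, of complex I, had no labelled read among 1722 in both libraries together, which allows a share of up to 0.174%; its low call was not made by DESeq2 (adjusted p 0.128). SDHD, the membrane anchor of succinate dehydrogenase, was the member called high, at 7.55% and 7.68%, a call lost on the T content scale. Glycolytic enzymes and glucose transporters, at a median total count of 3244, had medians of 1.54% and 1.52%. Of 19, 10 were low (52.6%, against 41.4% in the most abundant quintile) and 2 high. On the T content scale only 5 were low and 1 high, and the list stood at 0.61 of the level of genes of like T content, against 0.39 of the median gene. GAPDH had 279 labelled of 38875 reads and 261 of 41400, shares of 0.718% and 0.630%. The high members were at the entry of the pathway: SLC2A1, the glucose transporter GLUT1 (7.70% and 8.30%), and HK2, hexokinase 2 (9.47% and 8.16%), which lost its call on the T content scale.

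Antioxidant enzymes were mostly low. The list of peroxiredoxins, thioredoxins and glutathione enzymes had medians of 1.42% and 1.05%, with 9 low (52.9%) and 2 high of 17. Its median total count was 2384, and in the most abundant quintile 41.4% of genes were low. GSTP1, a glutathione transferase, had 0.336% and 0.379%, and GPX4, which removes lipid peroxides, had 0.309% and 0.234%. The high members were GCLC, the catalytic subunit of the rate-limiting enzyme of glutathione synthesis (16.8% and 10.4%), and TXNRD1, thioredoxin reductase (9.50% and 13.6%), which lost its call on the T content scale. Cytoskeletal genes had medians of 1.67% and 1.42%, with 12 low and none high of 20. ACTB had 1.67% in each library, and TMSB4X, which sequesters actin monomers, had 0.504% and 0.262%. Proteasome subunits had 1.91% and 1.92%, with 19 low and none high of 44. Their median total count was 2569.75, and their 43.2% low lay near the 41.4% of the most abundant quintile.

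**Figure D3:**
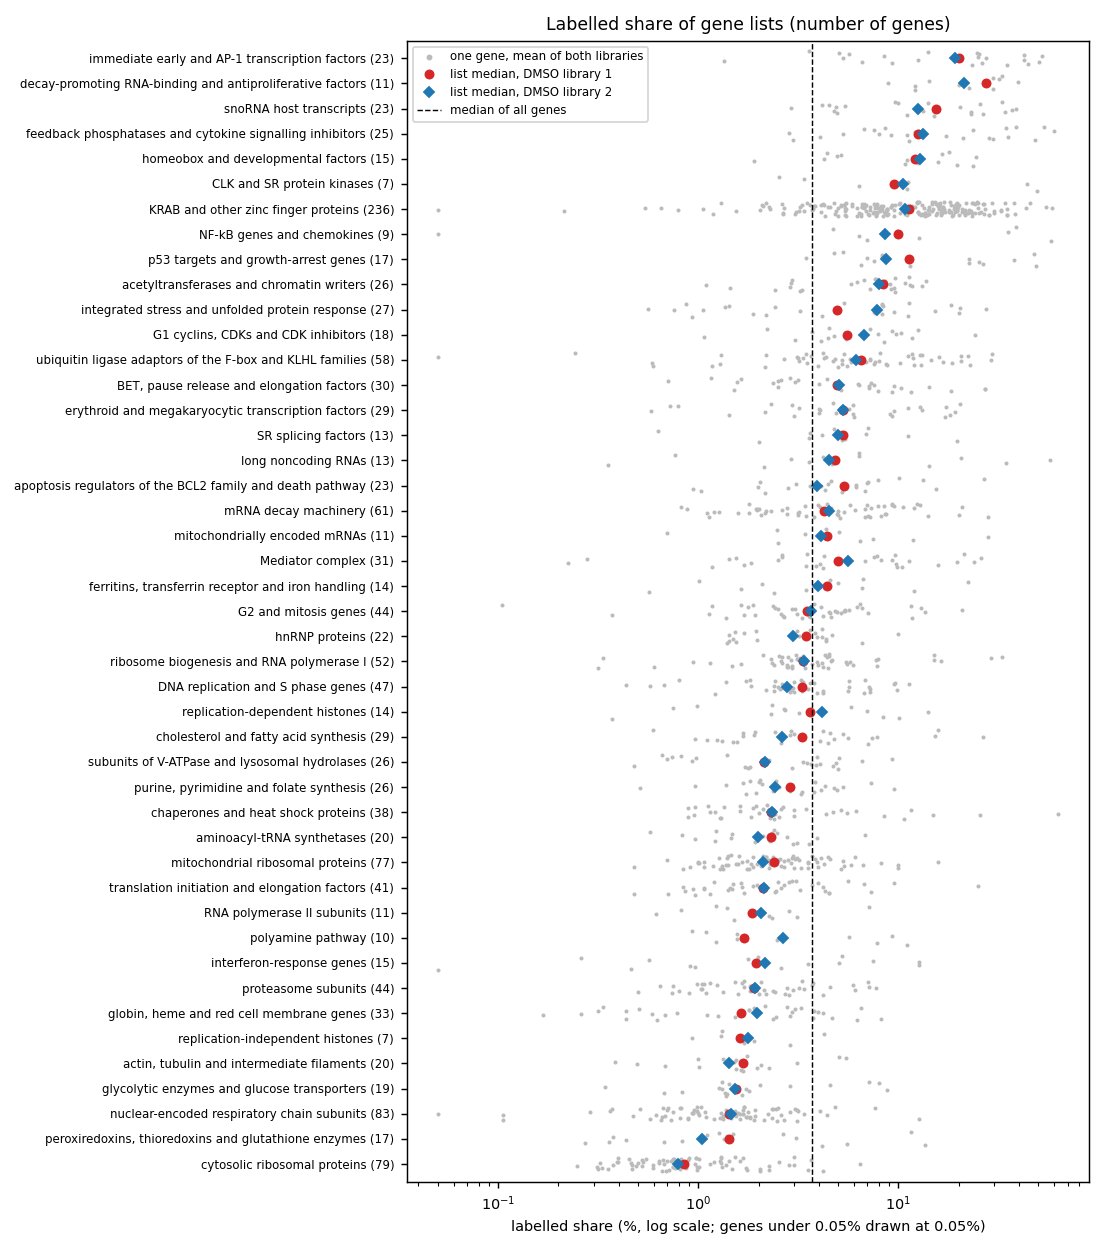
Labelled share in percent on a log axis for 45 gene lists, ordered by the median of the mean share over both libraries, with the number of genes measured in brackets; grey points are single genes, circles and diamonds are the list medians in DMSO library 1 and 2, and the dashed line is the median of all genes. Library medians are 20.1% and 19.1% for immediate early factors and 27.4% and 21.3% for decay-promoting factors, the first and the second list from the top, and 0.85% and 0.79% for cytosolic ribosomal proteins at the bottom, and single genes of most lists fall on both sides of the line.

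Of the erythroid genes, those for globins, heme synthesis and the membrane were low or uncalled, and the transcription factors had calls in both directions. Globin, heme and red cell membrane genes had medians of 1.63% and 1.96%, with 13 low and none high of 33. HBZ, the embryonic zeta globin, had 24 labelled of 6572 reads and 22 of 8360, shares of 0.365% and 0.263%. HBE1, the embryonic epsilon globin, had 0.830% and 0.735%, and the membrane glycoprotein GYPB 0.216% and 0.117%. The fetal globins were not called: HBG1 had 3.10% and 2.79%, and HBG2 had 4.22% and 3.68%. HBG1 and HBG2 are nearly identical in sequence, as are HBA1 and HBA2, so the split of reads within each pair is uncertain.

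Among 29 erythroid and megakaryocytic transcription factors, 11 were high and 4 low, with medians of 5.30% in each library. ZBTB7A, a repressor of fetal globin, had 20.9% and 19.7% from 3604 and 3639 reads. NFE2, a factor of globin and platelet genes, had 11.7% and 10.7%, GATA2, which precedes GATA1 in the lineage, 9.46% and 8.79%, and LMO2, the bridging protein of the TAL1 complex, 10.8% and 8.28%. GATA1, the central erythroid factor, was low, with 51 labelled of 2879 reads and 34 of 3169, shares of 1.77% and 1.07% (edgeR adjusted p 3.03e-10). LDB1, its partner in looping, and STAT5A, which acts downstream of the erythropoietin receptor, were low too, at 0.977% and 0.185%, and 0.679% and 0.763%. MYB (3.88% and 4.14%), KLF1 (3.70% and 4.36%) and TAL1 (5.30% and 6.62%) were not called. The last 200 transcript bases of GATA1 hold 20.0% T, and on the T content scale its low call was lost, as were the high calls of GATA2 and LMO2, while KLF1 was called high there; 12 were high and 2 low in all. PRAME, a tumour antigen abundant in K562, had 3.83% in each library and, at 44266 and 47331 reads, was among the 12 genes with the most labelled reads.

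The transcription machinery held calls in both directions. Of 30 BET, pause release and elongation factors, 9 were high (30.0%) and 5 low (16.7%), against a background of 18.7% and 17.8%. On the T content scale 7 were high and 4 low. BRD2, a bromodomain protein that binds acetylated histones, had 807 labelled of 4293 reads and 754 of 4203, shares of 18.8% and 17.9%. The cyclins of the pause release kinase P-TEFb were high, CCNT1 at 28.7% and 25.2% and CCNT2 with a mean of 27.1%; its kinase CDK9 had 27 and 29 total reads and was not measured. HEXIM1, which holds P-TEFb inactive, had 5.64% and 9.45% and missed the 2-fold minimum in library 1. NELFB and NELFE, subunits of the pausing complex NELF, were low, at 1.40% and 1.72%, and 0.420% and 0.987%, though NELFB was not on the T content scale. RNA polymerase II subunits had 5 low (3 on the T content scale) and none high of 11, POLR2A with 1.54% and 1.49%. Those 45.5% low lay near the 41.4% of the most abundant quintile. Mediator, the coactivator that bridges factors and polymerase, had 9 high and 3 low of 31, from MED26 (26.3% and 25.5%) to MED25 (0.324% and 0.230%). Acetyltransferases and chromatin writers had 11 high and 1 low of 26 (42.3% and 3.85%), with NSD1 at 16.4% and 11.2%.

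Other lists also held calls in both directions. In the integrated stress and unfolded protein response, 10 of 27 were high (37.0%) and 6 low (22.2%), and 8 and 6 on the T content scale. The phosphatase regulator PPP1R15A (29.1% and 25.7%) and the transcription factor DDIT3 (21.5% and 18.4%) were high, while the folding enzymes PDIA6 (0.930% and 0.582%) and PDIA4 (1.03% and 1.09%) were low, PDIA4 not on the T content scale. In cholesterol and fatty acid synthesis 3 of 29 were high (10.3%) and 7 low (24.1%). These lay near the 14.2% high and 23.0% low of all genes with at least 200 counts. The low genes included FASN, fatty acid synthase, at 1.34% and 1.15%. Of 38 chaperones 5 were high (13.2%) and 11 low (28.9%). Their median total count was 3572.75, and their 28.9% lay below the 41.4% low of the most abundant quintile. DNAJB9 of the endoplasmic reticulum had 63.0% in each library from 108 and 100 reads, and HSP90AB1 had 1.23% and 1.07% from 57267 and 64658. Of 23 apoptosis regulators 4 were high (17.4%, below the background of 18.7%) and 1 low, and 2 were high on the T content scale. PMAIP1, a BH3-only protein that promotes cell death, was high at 35.4% and 18.1%. BCL2L11, of the same class, was high at 23.1% and 7.77% but not on the T content scale. MCL1 (9.62% and 6.27%) and BCL2L1 (4.67% and 3.91%), which protect cells, were not called.

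Iron handling had 2 high and 3 low genes of 14 (14.3% and 21.4%, near the background of 18.7% and 17.8%), and 1 high and 2 low on the T content scale. SLC40A1, the iron exporter ferroportin, had 23.2% and 21.3%, and FTL, the ferritin light chain, had 1.64% and 1.61% from 48221 and 48795 reads, a low call that was lost on that scale. TFRC, the transferrin receptor, had 7.05% and 6.23% and was not called. In the polyamine pathway 3 of 10 were high and 3 low (30.0% each). AMD1, which makes the aminopropyl donor (12.8% and 9.27%), SAT1, which acetylates polyamines for export, and AZIN1, an antizyme inhibitor, were high; on the T content scale AMD1 alone kept the call. The synthases SRM (1.03% and 0.837%) and SMS, and the antizyme OAZ1, were low.

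Of 22 hnRNP proteins, which package pre-mRNA, 7 were low (31.8%) and 1 high, with HNRNPA2B1 at 1.47% and 1.62%, a low call lost on the T content scale. The hnRNP list is abundant, with a median total count of 7366.75, and its 31.8% lay below the 41.4% low of the most abundant quintile. SR splicing factors, with 2 high and 1 low of 13 (15.4% and 7.69%), and ribosome biogenesis and RNA polymerase I genes, with 8 high and 7 low of 52 (15.4% and 13.5%), lay below the background in both directions. SRSF10 had a mean of 19.6%, and SRSF9 had 0.624% and 0.627%. POLR1B, a core subunit of RNA polymerase I, had 18.0% and 14.8%, and the nucleolar proteins NPM1 and FBL had 1.05% and 0.832%, and 0.618% and 0.581%. Interferon-response genes had 6 low and 2 high of 15 (40.0% and 13.3%). BST2, which tethers virions to the cell surface, had 1 labelled read of 1139 in library 1 and 0 of 875 in library 2.

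Genes of S phase, G2 and mitosis lay near the median gene, and G1 regulators lay above it. G2 and mitosis genes had medians of 3.48% and 3.68%, with 5 high and 6 low of 44, and S phase genes 3.31% and 2.77%, with 4 high and 6 low of 47. These shares are near or below the background of 18.7% high and 17.8% low. CDC20, the activator of the anaphase-promoting complex, had 0.332% and 0.409%, and KIF23, a kinesin of cytokinesis, had 18.5% and 23.0%. The 18 G1 cyclins, CDKs and CDK inhibitors had medians of 5.53% and 6.73%, with 5 high (27.8%) and 1 low (5.56%). On the T content scale 7 were high and 0 low. Of these G1 regulators, the inhibitor CDKN1B had 27.0% and 21.1%, and CDK4 had 1.21% and 0.928%, a low call lost on the T content scale. Replication-dependent histones, whose mRNAs end in a stem-loop and mostly lack a poly(A) tail, passed the count minimum in 14 of 65 cases. H2BC15 was called high at 13.4% and 14.7%, but 14 of its ACTD reads were labelled, 2.78% of its reads there.

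**Figure D4:**
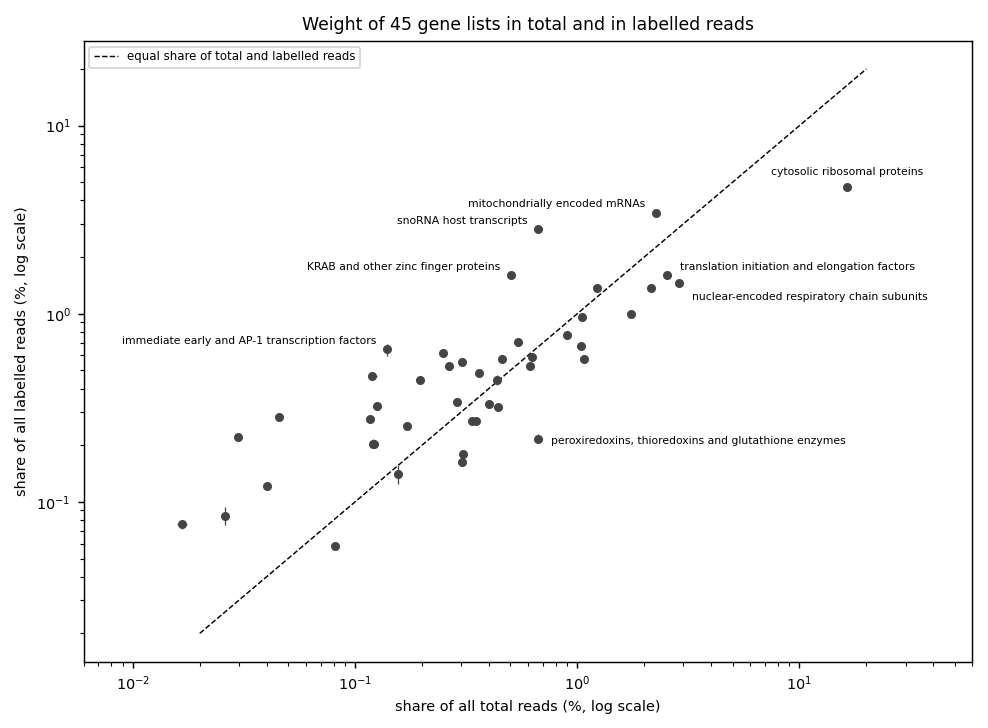
Each point is a gene list, with its share of all total reads on the horizontal axis and its share of all labelled reads on the vertical axis (percent, log axes, mean of the 2 DMSO libraries); bars span both libraries and the dashed line marks equal shares. snoRNA hosts take 0.65% and 0.68% of total but 2.87% and 2.77% of labelled reads, and cytosolic ribosomal proteins 16.3% and 16.4% of total but 4.67% and 4.71% of labelled reads.

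Mitochondrially encoded RNAs, made by a separate polymerase as long precursors and then cut apart, differed greatly among themselves. MT-ND1, a subunit of complex I, had 1191 labelled of 4035 reads and 922 of 3479, shares of 29.5% and 26.5%. MT-ND4, also of complex I, had 446 of 60705 and 381 of 57502, shares of 0.735% and 0.663%. MT-CO1 (12.2% and 11.5%) and MT-CYB (7.65% and 7.29%) were high, and MT-ND2 (4.38% and 3.97%) and MT-ATP6 (2.76% and 2.25%) were not called. The 22 genes of the mitochondrial chromosome took 4.69% and 4.67% of labelled reads, against 3.91% and 3.85% of total reads. Nuclear copies such as MTND1P23, with 168803 and 150411 reads at 5.86% and 5.00%, and MTATP8P1, with 189507 and 189398 at 4.66% and 4.25%, match mitochondrial RNA closely. The split of reads between MT-ND1 and MTND1P23 is therefore uncertain, and so is the share of each.

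The labelled share also went with features of the transcript. Across 9253 nuclear protein-coding genes it correlated with the T content of the last 200 transcript bases (Spearman's rho 0.34), the stretch in which reads lie and conversions are seen. Genes in the lowest quintile of T content (median 20.5% T) had median shares of 2.01% and 1.84%, with 7.02% high and 34.6% low, and those in the highest quintile (40.5% T) had 5.73% and 5.34%, with 29.1% high and 6.86% low. How far this reflects detection and how far turnover was not tested. A second edgeR fit, against the median of genes in the same decile of T content, left 1437 of the 1943 high genes high and 1307 of the 1851 low genes low. The 65 genes absent from GENCODE 29, of which 23 were high and 2 low, had no T content and were not in that fit. With shares divided by the decile median, immediate early factors stood 5.44-fold above genes of like T content, snoRNA hosts 4.52-fold and zinc finger proteins 3.16-fold. Cytosolic ribosomal proteins had 0.31 of the level of such genes, and the list of antioxidant enzymes stood lower, at 0.29. In the second fit, low calls fell from 67 to 56 in cytosolic ribosomal proteins and from 50 to 45 in respiratory chain subunits. They fell from 19 to 15 in proteasome subunits but rose from 11 to 15 in chaperones.

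Length and abundance showed trends of like size. From the shortest to the longest quintile of 3′ UTRs, medians were 1.99% and 1.91% at a median of 176.5 bases, and 5.73% and 5.28% at 4150.5 bases (rho 0.32). From the least to the most abundant quintile they were 6.25% and 6.06%, and 1.98% and 1.82% (rho −0.37). Total count is also the denominator of the share, so these measures are not independent of each other. The number of exons showed no such trend (rho −0.02), but 164 single-exon coding genes had medians of 8.16% and 6.60%, with 66 high (40.2%), against 3.69% and 3.46% in genes with more exons. These features move together across genes, and the correlations describe genes of the same 2 libraries, which are not independent replicates.

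**Figure D5:**
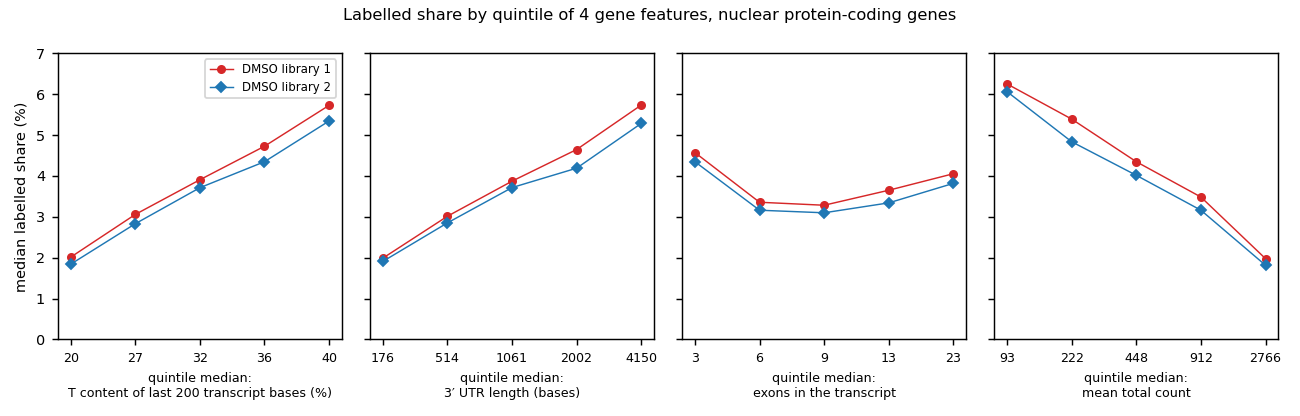
Median labelled share in percent of nuclear protein-coding genes in DMSO library 1 (circles) and library 2 (diamonds) by quintile of T content, 3′ UTR length, exon number and mean total count; tick labels give the median of each quintile. Shares go up with T content and UTR length, go down with total count, and change little with exon number.

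AU-rich motifs were more common in high than in low genes. The pentamer ATTTA was present in the 3′ UTR of 86.9% of 1651 high genes, 44.3% of 1532 low genes and 70.1% of all 9063. The heptamer was present in 50.6% of high, 13.3% of low and 32.0% of all. Every heptamer contains the pentamer, so these counts overlap. High genes also had longer 3′ UTRs, with a median of 1763 bases against 462.5 in low genes and 1094 in all. Per kilobase of UTR the heptamer occurred 0.41 times in high, 0.20 in low and 0.31 in all genes. The 3′ UTRs of high genes were also richer in A and T, with a median of 62.9% against 48.9% in low genes and 57.2% in all. Across genes the share correlated with this A and T content (rho 0.35). Both motifs consist of A and T alone, and how far their counts follow base composition was not tested.

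Within quintiles of T content, and within quintiles of UTR length, genes also differed in median share by the heptamer, a description with no test. Only 1 feature was matched at a time. The median UTR in the lowest quintile of T content was 1734.5 bases with the heptamer and 462 without, and in the highest 2674 and 1066. In the lowest quintile of T content, genes with at least 1 heptamer had 3.92% and 3.58%, and genes with none 1.82% and 1.73%. In the highest quintile, genes with at least 1 had 6.72% and 6.49%, those with 3 or more 8.53% and 7.95%, and genes with none 4.83% and 4.29%. In the shortest quintile of UTR length, 136 genes with at least 1 heptamer had 3.83% and 2.97%, and 1677 with none 1.89% and 1.84%. In the longest, 1238 genes with at least 1 had 6.24% and 5.96%, and 575 with none 4.42% and 4.12%. By list, the heptamer was held by 8 of 11 decay-promoting factors, 15 of 23 immediate early factors and 16 of 25 feedback inhibitors, but by 74 of 236 zinc finger genes, 31.4%, which is near the 32.0% of all genes. It was held by 7 of 79 ribosomal protein genes, whose median 3′ UTR was 90 bases. High shares also occurred without it: MYLIP, TXNIP, EGR1 and MYC held no heptamer in the annotated 3′ UTR used.

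The count minimum was not a natural break. The 22 genes at a mean of exactly 50 counts had a median share of 5.28%, and the 14 at 49.5 counts had 10.7%. The 3047 genes with 10 to 50 mean counts had a median of 6.06% from reads pooled over both libraries, against 3.71% in the genes kept.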

How the data were processed

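The authors deposited whole-number counts per gene of all human reads and of reads with T-to-C conversions, not normalized, and both tables were used as deposited. Counts of the Drosophila spike-in were not used, since a share within a library needs no scaling between libraries. Tools named in the submitters' processing notes are bedtools, Trim Galore 0.6.5 and bcl2fastq 2.17.1.14, with the builds hg38 and dm6. How reads were aligned, how conversions were called, how multiply mapped reads were treated and whether strand was used is not stated there. Reads of overlapping and antisense genes may therefore be mixed. Per the labels' protocols, libraries were made with QuantSeq 3′ mRNA-seq.

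Labelled shares were computed per gene and library. Labelled and unlabelled counts of the 2 DMSO libraries (4 columns) were fitted in edgeR 4.0.16 (R 4.3.3; robust quasi-likelihood, two-sided), with library as a block and offsets that set the median gene's ratio to 1 in each library. The biological coefficient of variation was 15.1%. The block pairs columns of the same RNA, not samples. DESeq2 1.42.0 was an alternative. Intervals (95%, Wilson) and limits for no labelled read (3 counts over both libraries) describe counting error alone, because PCR copies of a molecule cannot be told from separate molecules.

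Gene types, positions and 3′ ends came from GENCODE 29, which held 10344 of the 10409 genes; 1 transcript per gene was used, and its annotated end may not be the one used in K562. Named genes were a fixed panel, the 15 highest shares at 200 counts or more, the 15 most abundant low genes, the 12 with most labelled reads, and up to 4 high and 4 low members of each of 45 lists with its extremes; EPCAM, FOS, GAS5, GATA2, HBG2, KLF6, MALAT1, NORAD, SPRY2, ZFP36L1 and the genes of the last section were added after their values were seen. The genes, lists and tests were chosen with earlier results of these data known. Some genes, including a few that these rules name, are not reported here.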

Additional observations from a re-analysis of the deposited data

How the results depend on the processing

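The counts of high and low genes kept within 1.5 times of 1943 and 1851 under every alternative with a test. They were 1732 and 1487 with DESeq2, 2723 and 1276 against the library-wide share, 1329 and 1307 at a minimum of 200 mean counts, 2295 and 1916 at 10 counts in each library, 1666 and 1594 over nuclear protein-coding genes, 1388 and 1373 with a test against 2-fold, 2808 and 2747 without a minimum fold, 1692 and 2122 with TMM, and 1776 and 1644 against genes of like T content. Without the replicate block they were 2029 and 1945. Leaving out 1 library gave 2717 to 2722 high and 2921 to 2963 low genes from the other library alone, with no test. Removing genes with 3 or more labelled reads in ACTD, an alternative chosen after seeing the data, gave 1923 and 1803. Of 45 list medians, 4 moved by over 1.5 times at 200 counts (homeobox, zinc finger, stress response and replication-dependent histone lists), 4 as summed counts, 2 on the T content scale (NF-kB genes and glycolysis), and 1 without library 2 (stress response); the causes were not tested. Against the library-wide share 3 list medians (hnRNP proteins, ribosome biogenesis, S phase genes) lie above in place of below. Depth limits low shares: no labelled read among the 160 of ZNF414 still allows up to 1.88%. Spearman's rho between the libraries was 0.798 over all genes and 0.957 over those with 20 or more labelled reads in both, a subset chosen by a count on which the share itself depends.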

Other observations

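Values outside the comparisons were looked at after the shares were known. SLC4A2, an anion exchanger, had no labelled read among 1783 in both libraries together, which allows a share of up to 0.168%. The highest shares of all were in genes with few reads: an annotated Y_RNA copy had 83.0% and 88.9% from 94 and 54 reads, and the pseudogene RPL15P17 had 86.2% and 76.4% from 58 and 72. Genes absent from GENCODE 29 numbered 65, with medians of 6.64% and 5.65% and 23 high and 2 low. Among mitochondrial genes, the tRNA gene MT-TF had 207552 and 194415 reads with shares of 1.58% and 1.49%, and 183 labelled reads in ACTD.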
